A study of Mus musculus with 6 samples.

Results

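Endomucin (Emcn), CD34 (Cd34) and podocalyxin (Podxl) are the 3 endothelial sialomucin genes described here, taken by symbol from a table of 38918 genes measured by RNA sequencing in whole embryonic mouse hearts. All 3 symbols matched 1 row each, and all 3 passed the filter on low values. Their transcripts were measured in 3 control and 3 conditional knockout libraries of hearts at embryonic day 11.5, on a C57/BL6 background. The controls had 1 floxed copy and 1 wild-type copy of Tie2, the angiopoietin receptor encoded by Tek, and their label names no Cre. Conditional knockout embryos carried 2 floxed alleles and Nfatc1Cre, a recombinase expressed from Nfatc1, a gene of the endocardium, so every group shares at least 1 floxed allele. RNA came from 18 hearts per genotype, and the series text states that it was pooled and then portioned into the 3 replicates. The libraries of a genotype differed more than that would give: Afp, the fetal liver gene for alpha-fetoprotein, ranged from 0.249 to 123 FPKM among the conditional knockouts, and the mean log2 level of Y-linked genes was 2.76, 2.76 and 3.71 in control replicates 1, 2 and 3. How many hearts stand behind each library is thus not known, and p-values measure the spread between these libraries, whatever its source. The question posed by the design is how the heart transcriptome differs after loss of Tie2 in cells of the endocardial lineage. Nfatc1Cre is named for the conditional knockouts only, so an effect of Nfatc1Cre itself and loss of Tie2 cannot be told apart here.

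Sialomucins are membrane proteins whose extracellular part is crowded with serine- and threonine-linked sugar chains that end in sialic acid. The negative charge of these chains keeps opposing cell surfaces apart, and during vessel formation it helps the apical membranes of a cord of endothelial cells to separate into a lumen. Cd34 and Podxl belong to 1 gene family with similar cytoplasmic tails that bind PDZ and ERM adaptor proteins, while Emcn encodes a separate mucin-like protein. In the embryonic heart, endomucin antibodies are widely used to mark the endocardium, CD34 marks endothelium and also haematopoietic progenitors, and podocalyxin is found on endothelium and on the mesothelium that gives the epicardium.

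The libraries were comparable in scale. FPKM, a fragment count corrected for the length of the transcript and the size of the library, summed to between 481334 and 582261 per library, and absolute read depth is unknown. Tek, the targeted gene, stood at 16.6 to 25.7 FPKM in the controls and 3.13 to 3.38 FPKM in the conditional knockouts, which fits both labels, although no source used here states which exons recombination removes. The defining cardiomyocyte and endothelial markers were present in all libraries. The summed level of 8 cardiomyocyte genes was lowest in conditional knockout replicate 1, at 12988 FPKM against 18877 to 20432 FPKM in the other 5 libraries. The mean log2 level of Y-linked genes was 3.50 to 3.91 in the conditional knockouts, so that it was higher in them than in control replicates 1 and 2.

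No difference between the genotypes was detected in any of the 3 sialomucin genes. limma's test of log2(FPKM + 1), fitted to the 12988 genes that averaged 1 FPKM or more over the 6 libraries and adjusted by Benjamini-Hochberg, called 0 of the 3 at an adjusted p under 0.05. Over all genes tested it called 0.123% lower and 0.0539% higher, 0.177% in all, so 0 of 3 is near the background. At an unadjusted p under 0.05 limma again gave 0 of the 3, where 4.37% of all genes tested were lower and 2.31% higher. The control and conditional knockout libraries overlapped for all 3, where 8.17% of all genes tested had every conditional knockout library below every control and 5.23% had every one above.

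Emcn was the most abundant of the 3. It lies on chromosome 3 from 137341067 to 137432185 (GRCm38, plus strand), and its longest coding transcript has 12 exons. Its level was 44.6, 48.1 and 44.0 FPKM in control replicates 1, 2 and 3 and 40.8, 56.7 and 48.3 FPKM in conditional knockout replicates 1, 2 and 3. The conditional knockouts held both the lowest and the highest of the 6 values, so they surrounded the controls. The means were 45.6 ± 2.21 and 48.6 ± 7.95 FPKM (SD, n = 3 each), and the genotypes differed by 0.080 ± 0.13 on the log2 scale (SE, limma, adjusted p = 0.923). Its 95% interval, -0.23 to 0.39, runs from 0.851 to 1.31 times the control level. The sign rests on 1 library: without conditional knockout replicate 2 the log2 fold change was -0.035. That same library had the highest summed level of 5 liver genes, 237 FPKM against 2.66 to 87.5 FPKM in the other 5. Conditional knockout replicate 1, the lowest for Emcn, was the one with the low cardiomyocyte sum. The part of either in the Emcn values was not tested.

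Cd34 was the steadiest of the 3 in controls. It lies on chromosome 1 from 194938819 to 194961279 (GRCm38, plus strand), with 8 exons in its longest coding transcript. Its level was 39.8, 40.9 and 40.7 FPKM in control replicates 1, 2 and 3 and 39.9, 39.3 and 34.0 FPKM in conditional knockout replicates 1, 2 and 3. Conditional knockout replicates 2 and 3 lay below every control, replicate 2 by little and replicate 3 clearly. The groups overlapped narrowly, with conditional knockout replicate 1 at 39.91 FPKM just above control replicate 1 at 39.85 FPKM. The means were 40.5 ± 0.564 and 37.7 ± 3.25 FPKM (SD, n = 3 each), a log2 difference of -0.10 ± 0.099 (SE, limma, adjusted p = 0.848). The 95% interval, -0.34 to 0.13, spans 0.793 to 1.09 times the control level. Without conditional knockout replicate 3 the log2 fold change was -0.031. An antisense gene, Gm16897, overlaps Cd34 over 5521 bases and was listed at 0.297 to 0.891 FPKM. The strand setting of the counting is not given in these sources, so reads of the 2 genes cannot be told apart where they overlap.

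Podxl showed the smallest difference. It lies on chromosome 6 from 31519488 to 31563981 (GRCm38, minus strand), with 8 exons in its coding transcript, and no other annotated gene overlaps it or Emcn. Its level was 32.2, 29.2 and 26.2 FPKM in control replicates 1, 2 and 3 and 27.2, 30.6 and 28.7 FPKM in conditional knockout replicates 1, 2 and 3. Here the controls surrounded the conditional knockouts. The means were 29.2 ± 3.01 and 28.8 ± 1.73 FPKM (SD, n = 3 each), and the log2 difference between them was -0.014 ± 0.11 (SE, limma, adjusted p = 0.990). The 95% interval, -0.27 to 0.24, spans 0.830 to 1.18 times the control level. Of all genes tested, 6.97% had a smaller absolute change. The difference turned positive in 7 of the 16 alternative fits.

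**Figure D1:**
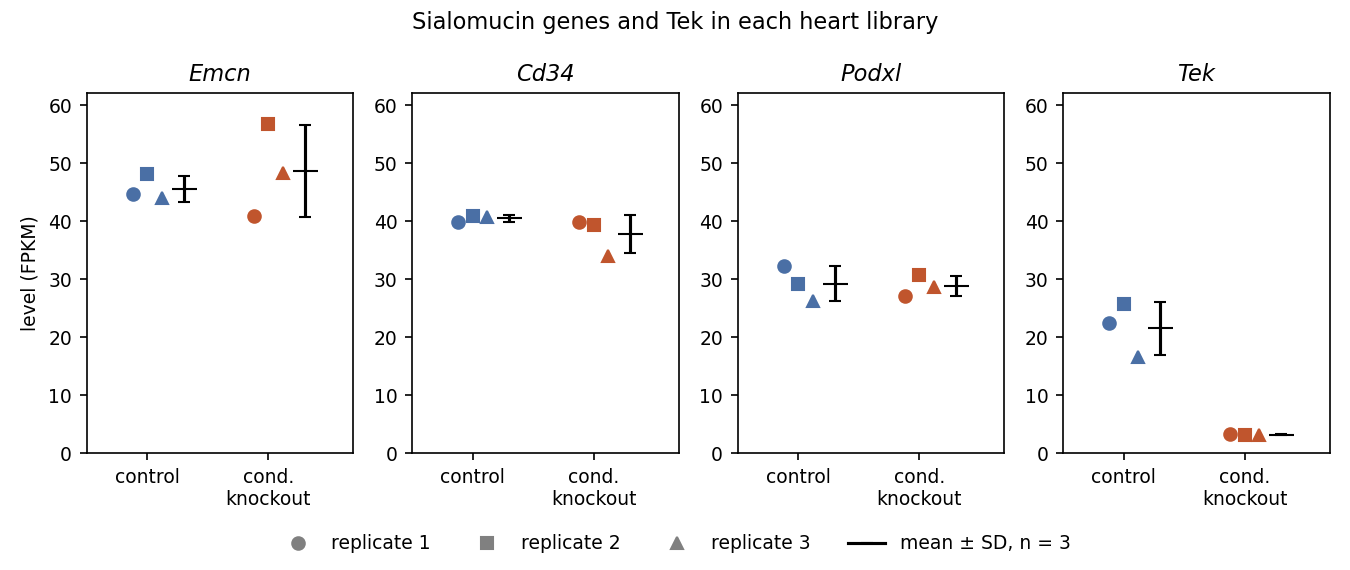
Level in FPKM (vertical axis, starting at 0) of Emcn, Cd34, Podxl and Tek in the 3 control (blue) and 3 conditional knockout (orange) libraries, with the marker shape giving the replicate number and the black bar the mean ± SD. Control and conditional knockout points overlap for each sialomucin gene, while all 3 conditional knockout points of Tek, at 3.13 to 3.38 FPKM, lie below every control.

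The 3 genes were all expressed well above the middle of the transcriptome. Emcn, Cd34 and Podxl had higher mean FPKM than 87.1%, 84.1% and 78.1% of the genes tested. The order Emcn, Cd34, Podxl was the same in every one of the 6 libraries, and no neighbours in that order overlapped within either group. FPKM is scaled by transcript length, so levels of different genes can be compared, within the accuracy of the transcript models. Their spread between libraries was ordinary or small. The pooled SD within groups on the log2 scale was 0.17 for Emcn, 0.089 for Cd34 and 0.12 for Podxl, and for genes within 2-fold of each level the median SD was 0.16, 0.15 and 0.15.

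Ratios of the 3 genes inside a library do not depend on how that library was scaled. The Emcn to Cd34 ratio was 1.12, 1.18 and 1.08 in controls and 1.02, 1.44 and 1.42 in the conditional knockouts. Conditional knockout replicates 2 and 3 had the highest ratios and replicate 1 the lowest, so the groups overlapped. The mean log2 ratio was 0.17 ± 0.061 and 0.36 ± 0.28 (SD, n = 3 each, two-sided exact permutation p = 0.4). The Emcn to Podxl ratio was 1.38, 1.65 and 1.68 in controls and 1.501, 1.85 and 1.68 in the conditional knockouts (exact permutation p = 0.4), and the Cd34 to Podxl ratio was 1.24, 1.40 and 1.55 against 1.47, 1.28 and 1.18 (exact permutation p = 0.6). For each pair the groups overlapped, and no shift of 1 gene against another was detectable. With 3 libraries against 3 the smallest p such a test can give is 0.1, and over the 6 within-library tests made, these 3 and the 3 that follow, the Benjamini-Hochberg values of the ratios were 0.48, 0.48 and 0.6.

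The sialomucin values stood beside lower values of many other endothelial transcripts. Of 22 genes that mark endothelium of most vessels, limma called 1 lower, Mmrn2, an extracellular matrix gene of endothelium (log2 fold change -0.99 ± 0.10, SE, adjusted p = 0.0171), and 21 were not called. Mmrn2 kept its call in 1 of the 6 fits that left out a library, the one without control replicate 1 (adjusted p = 0.025), and had adjusted p values of 0.0644 to 0.135 in the others. With mean Y-linked expression as a covariate its call also ended (adjusted p = 0.187). The list's median log2 fold change was -0.28, against -0.013 over all genes tested, with 18 of the 22 below 0 and 4 above. Of all genes tested, 53.2% were below 0. Every conditional knockout library lay below every control for 13 of them (8.17% of all genes tested) and above every control for 2 (5.23% of all genes tested). At an unadjusted p under 0.05, 12 were lower and 2 higher, against 4.37% and 2.31% of all genes tested. At the adjusted threshold 0.123% of all genes tested were called lower. Examples chosen after their values were seen show both sides. Cdh5, which encodes VE-cadherin, measured 44.6, 56.5 and 49.6 FPKM in the controls and 27.2, 33.9 and 30.1 FPKM in the conditional knockouts (limma, adjusted p = 0.189). Robo4, a guidance receptor gene of endothelium, measured 0.952, 1.80 and 1.75 FPKM against 2.69, 3.39 and 3.298 FPKM (limma, adjusted p = 0.374), and Sox17, a transcription factor gene of arterial endothelium, had a log2 difference of 0.50 ± 0.15 (SE, limma, adjusted p = 0.597). Sox17 averaged 0.804 FPKM in the controls and 1.56 FPKM in the conditional knockouts, so only the latter took it past the filter. In whole hearts, fewer cells of a type and less RNA per cell cannot be told apart. Of the 22 changes, 18 were lower than that of Emcn, 17 lower than that of Podxl and 16 lower than that of Cd34.

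The contrast with endocardial genes was wider. limma called 5 of 9 endocardial genes lower and none higher, where 0.123% of all genes tested were called lower and 0.0539% higher. The list median was -1.004. Those called were Plvap, the gene of the fenestral and caveolar diaphragm protein, Npr3, the clearance receptor of natriuretic peptides, Tmem100, a BMP-responsive membrane protein gene, the endothelin receptor gene Ednrb, and the adhesion receptor gene Gpr126. Those 5 calls were already known when the list was written, so the list is no independent evidence of a direction. The count rests on all 6 libraries: it was 3, 1 or 2 when control replicate 1, 2 or 3 was left out and 2, 1 or 1 when conditional knockout replicate 1, 2 or 3 was, and Npr3 alone kept its call in all 6 of these fits. With Y-linked expression as a covariate all 5 calls ended, at adjusted p values of 0.144 (Npr3) to 0.339 (Tmem100), and Tmem100 also missed the threshold with the replicate number as a block (0.0542). Within replicates 2 and 3 Plvap and Gpr126 missed it, at 0.0622 each. All 9 changes lay below that of each sialomucin gene. The list includes Nfatc1, from which Cre was expressed in the conditional knockouts. It stood at 15.1 ± 0.923 FPKM in the controls and 10.8 ± 0.959 FPKM in the conditional knockouts (SD, n = 3 each, limma, adjusted p = 0.333). Plvap, higher than Emcn in every control at 66.9, 61.6 and 53.6 FPKM, was lower than Emcn in every conditional knockout at 27.4, 26.2 and 22.6 FPKM (log2 fold change -1.22 ± 0.12, SE, limma, adjusted p = 0.0164, and 0.0330 to 0.127 when 1 library was left out). Of the 5 genes of venous endothelium, where endomucin is also found, none was called by limma at an adjusted p under 0.05. At an unadjusted p under 0.05, 1 was lower and 2 higher (4.37% and 2.31% of all genes tested). Their summed level was 58.4 to 62.1 FPKM in the controls and 59.8 to 68.6 FPKM in the conditional knockouts. The list of coronary and sprouting endothelium was mixed. Of its 8 tested genes, 5 were higher and 1 lower at an unadjusted p under 0.05 (2.31% and 4.37% of all genes tested). Every conditional knockout library was above every control for 5 genes and below for 1 (5.23% and 8.17% of all genes tested). The median log2 fold change was 0.51, while the summed level of the 9 listed genes did not rise. That sum was 27.7 to 30.8 FPKM in the controls and 23.9 to 30.6 FPKM in the conditional knockouts. limma called 1 in each direction. Esm1, the gene for endocan, rose (log2 fold change 1.27 ± 0.14, SE, limma, adjusted p = 0.0219) and Gja4, which encodes connexin 37, fell (-1.48 ± 0.16, SE, limma, adjusted p = 0.0232). Esm1 averaged 0.390 FPKM in the controls and 2.34 FPKM in the conditional knockouts, so it passed the 1 FPKM filter only through the latter. Angpt2, also among the higher genes, passed it in the same way (0.833 and 1.57 FPKM). Esm1 lost its call in all 6 fits without a library (adjusted p = 0.0560 to 0.155), and Gja4 kept its own without control replicate 3 and without conditional knockout replicate 1 (0.0346 and 0.0313) and lost it in the other 4 (0.0987 to 0.158). Both calls ended with the Y-linked covariate (0.326 and 0.187) and within replicates 2 and 3 (0.122 and 0.0557), and that of Esm1 with the replicate block (0.0921).

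**Figure D2:**
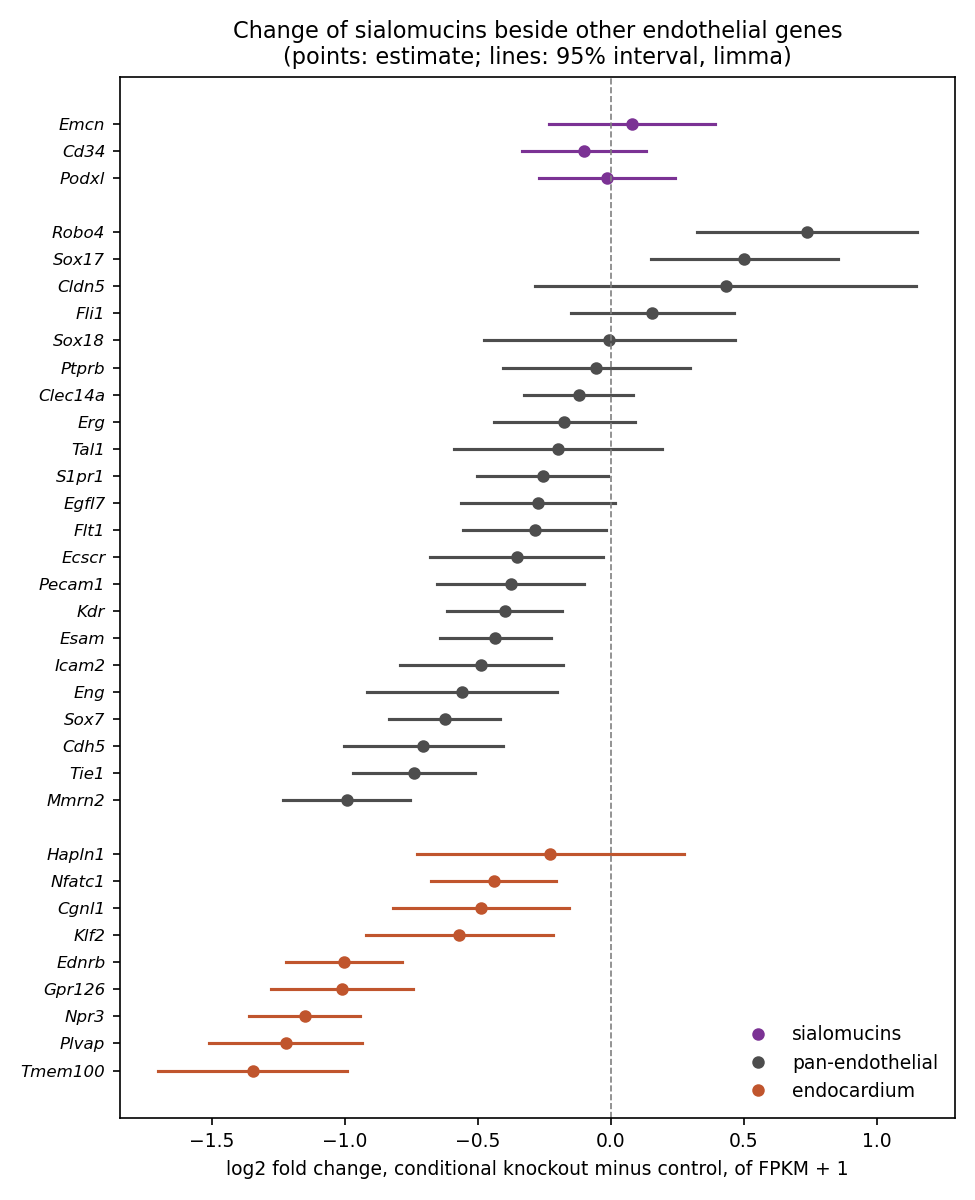
Log2 fold change of FPKM + 1, conditional knockout minus control (horizontal axis), with 95% intervals from limma, for the 3 sialomucin genes, 22 pan-endothelial genes and 9 endocardial genes. The intervals of Emcn, Cd34 and Podxl all span 0, and all 9 endocardial estimates lie to the left of them.

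To describe that difference within each library, the mean log2(FPKM + 1) of the 22 pan-endothelial genes was subtracted from the value of each sialomucin gene. The list was chosen with earlier results of these data known, so the p-values below are no independent evidence of a direction. Its mean was 3.843 in the controls and 3.605 in the conditional knockouts, so subtracting that mean raised every gene's difference equally. Emcn lay 1.704, 1.71 and 1.68 above that mean in controls and 1.79, 2.19 and 2.07 above it in the conditional knockouts, on the log2 scale. Every conditional knockout library was above every control, by 0.32 on average (two-sided exact permutation p = 0.1, the smallest that 3 against 3 can give, and 0.3 after adjustment over 6 tests). Cd34 was also separated, but narrowly, at 1.54, 1.48 and 1.56 in controls and 1.76, 1.67 and 1.57 in the conditional knockouts, a mean difference of 0.14 (exact permutation p = 0.1, adjusted 0.3). Its conditional knockout replicate 3, at 1.572, was just above control replicate 3, at 1.565. With a pseudocount of 0.1 the exact permutation p of Cd34 was 0.2, more than separated groups give. Podxl overlapped, at 1.25, 1.01 and 0.948 against 1.22, 1.32 and 1.33, a mean difference of 0.22 (exact permutation p = 0.2, adjusted 0.4). When the median of the list replaced its mean, the exact permutation p of Podxl was 0.1. On this scale 33.2% of all genes tested had every conditional knockout library above every control, so separation of 2 of the 3 is not particular to sialomucins.

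The same scale was used in a limma fit of all genes, an alternative chosen after the data were seen. The differences were 0.32 for Emcn (95% interval 0.026 to 0.61, adjusted p = 0.184), 0.14 for Cd34 (-0.098 to 0.37, adjusted p = 0.367) and 0.22 for Podxl (-0.042 to 0.49, adjusted p = 0.239). limma called none of them, where 0.0539% of all genes tested were called higher and 0.0308% lower, and Emcn was the single one under an unadjusted p of 0.05 (limma, unadjusted p = 0.0364), where 24.9% of all genes tested were higher at that threshold. The scale adds 1 constant to every gene's difference, and it moved the median of all genes tested from -0.013 to 0.22, so none of the 3 is set apart from other heart genes by it. The relative differences of Emcn and Podxl from the endothelial mean were larger when the median of the 22 genes replaced their mean, at 0.62 and 0.52, and that of Cd34 was then 0.43.

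**Figure D3:**
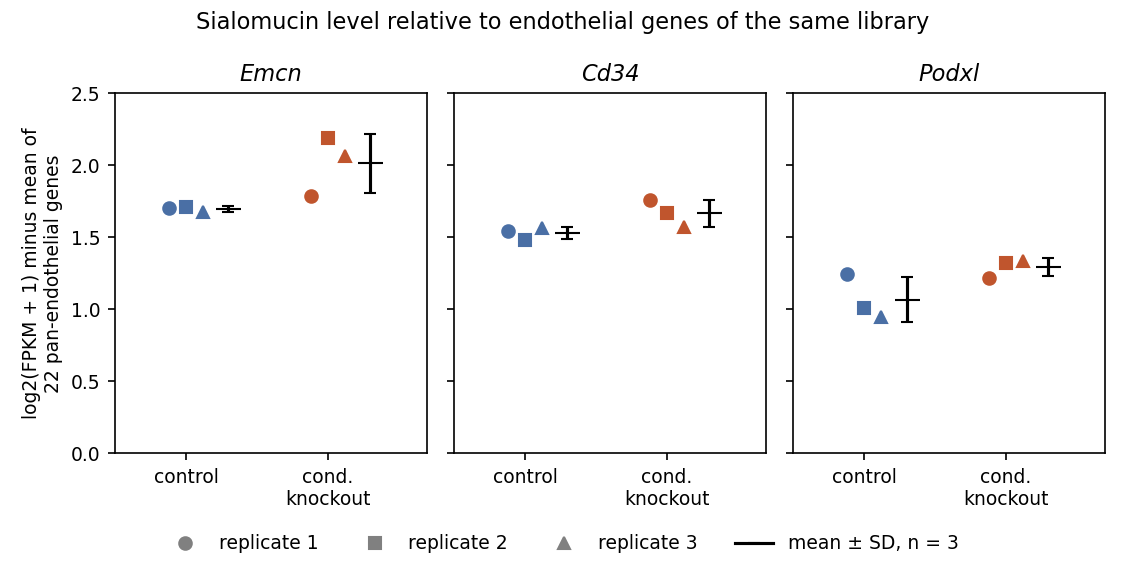
Log2(FPKM + 1) of each sialomucin gene minus the mean of 22 pan-endothelial genes in the same library (vertical axis), for control (blue) and conditional knockout (orange) libraries, with mean ± SD in black. Emcn and Cd34 are higher in all 3 conditional knockouts than in all 3 controls, with mean differences of 0.32 and 0.14, and Podxl overlaps. The margin of Cd34 is narrow, with its lowest conditional knockout at 1.572 and its highest control at 1.565.

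Transcripts of other cells that can carry these proteins were compared over whole marker lists. Over all genes tested, 4.37% were lower and 2.31% higher at an unadjusted p under 0.05. Every conditional knockout library lay below every control for 8.17% of them and above for 5.23%, and 53.2% had a log2 fold change below 0. For the epicardium, where podocalyxin can be made, none of 10 tested genes was called by limma (1 higher and 0 lower at an unadjusted p under 0.05), and the summed level was 212 to 230 FPKM in the controls and 212 to 217 FPKM in the conditional knockouts. The list was evenly split, with 5 changes below 0, 5 above and a median of -0.012, and every conditional knockout library lay below every control for 2 genes and above for 1. For haematopoietic progenitors and megakaryocytes, which can carry CD34, 0 of 8 tested genes was called by limma (1 higher and 0 lower at an unadjusted p under 0.05), and 7 of the 8 changes were below 0, with a median of -0.23, 2 genes separated lower and 1 higher. The sum was 35.8 to 40.9 FPKM in the controls and 25.3 to 43.0 FPKM in the conditional knockouts. Of that list's defining markers, Runx1, Myb and Ptprc were under a mean of 1 FPKM. The lowest haematopoietic sum, 25.3 FPKM, was in conditional knockout replicate 3, the library with the lowest Cd34. Its part in the Cd34 value was not tested. Mesenchymal genes, 5 in all, had no call and none at an unadjusted p under 0.05, with sums of 257 to 447 FPKM in the controls and 339 to 387 FPKM in the conditional knockouts. Erythroid sums could not be compared, since Hbb-y and Hba-x, embryonic globin genes, are listed at 0 in all 3 controls. In the conditional knockouts they averaged 20163 and 14468 FPKM. limma called both higher (adjusted p = 2.6e-09 and 2.2e-08), so they are 2 of the 7 genes called higher over all genes tested. Their values are also part of the FPKM sums of the conditional knockout libraries. The source of that difference was not tested.

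Close relatives of the 3 genes and other mucin-like membrane proteins were held in a list of 13 genes, of which 8 were tested. limma called none of the 8, and 1 was lower at an unadjusted p under 0.05 (4.37% of all genes tested). The list's median log2 fold change was 0.043. Podxl2, which encodes endoglycan, the remaining member of the CD34 family, was at 7.62 ± 2.35 FPKM in the controls and 7.15 ± 1.32 FPKM in the conditional knockouts (SD, n = 3 each). The most abundant were Cd24a, a small anchored sialoglycoprotein gene, at 107 ± 9.22 and 139 ± 33.1 FPKM, Cd164, a sialomucin gene of haematopoietic and other cells, at 97.0 ± 10.997 and 100.1 ± 9.16 FPKM, and Tmem123 at 66.99 ± 15.0 and 67.8 ± 2.27 FPKM. The wide spread of Cd24a came from conditional knockout replicate 1, at 176 FPKM against 112 and 129 FPKM in the other two. Cd93, an endothelial C-type lectin-like receptor gene with a mucin-like stretch, was the member under an unadjusted p of 0.05, and it is named here after its values were seen. It stood at 28.3, 30.5 and 27.7 FPKM in the controls and 18.7, 22.2 and 21.95 FPKM in the conditional knockouts, without overlap (log2 fold change -0.44 ± 0.10, SE, limma, adjusted p = 0.349). Every conditional knockout library lay below every control for 8.17% of all genes tested.

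Proteins that bind the cytoplasmic tail, several of which link podocalyxin and CD34 to the actin cortex, made up a list of 7 genes. It also held Crkl and Rab35, which belong neither to the ERM nor to the PDZ adaptors. Of 7 such genes all were tested, limma called none at an adjusted p under 0.05, 3 were lower at an unadjusted p under 0.05 (4.37% of all genes tested), and all 7 log2 fold changes were below 0, where 53.2% of all genes tested were. Their median was -0.16, with a range of -0.37 to -0.046, and 3 of the 7 had every conditional knockout library below every control (8.17% of all genes tested). The ERM proteins moesin, radixin and ezrin tie membrane proteins to actin. Their genes were the most abundant of the list: Msn was at 121 ± 3.65 and 108 ± 10.9 FPKM, Rdx at 91.4 ± 5.56 and 76.7 ± 4.10 FPKM, and Ezr at 64.7 ± 6.37 and 60.4 ± 11.97 FPKM (SD, n = 3 each). Rdx was separated, at 97.7, 89.3 and 87.2 FPKM in the controls and 72.1, 78.0 and 80.0 FPKM in the conditional knockouts, with an adjusted p of 0.742 in limma. The PDZ adaptor genes Slc9a3r1 and Slc9a3r2, which encode NHERF1 and NHERF2, partners of podocalyxin, had the most negative values of the 7, at -0.37 ± 0.15 and -0.28 ± 0.11 (SE, limma, adjusted p = 0.742 each). They too are named after their values were seen, and neither is specific to endothelium.

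The enzymes that build the sugar chains were measured as well. Mucin-type chains are started by GALNT transferases, which attach the first sugar to serine or threonine, and are extended by the core 1 synthase C1galt1 with its chaperone C1galt1c1. Of 21 genes of initiation and core synthesis 12 were tested, and limma called none. At an unadjusted p under 0.05, 2 were lower and 0 higher (4.37% and 2.31% of all genes tested). The median log2 fold change was -0.022. Galnt1, the most abundant, was at 49.0 ± 4.58 and 48.5 ± 1.17 FPKM, and C1galt1c1 at 14.6 ± 0.576 and 14.9 ± 0.563 FPKM (SD, n = 3 each). Galnt2 split by replicate number and not by genotype: both replicate 1 libraries were high, at 31.3 FPKM in the control and 26.7 FPKM in the conditional knockout, and the other 4 lay between 7.26 and 10.3 FPKM. Galnt18, the most negative at -0.49 ± 0.13 (SE, limma, adjusted p = 0.523), was low, at 2.28 ± 0.280 and 1.33 ± 0.138 FPKM.

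Sialic acid is made, activated and moved to the Golgi by Gne, Nans, Nanp, Cmas and Slc35a1, and it is attached by the St3gal, St6gal and St6galnac transferases. Of 20 genes in this group 18 were tested, and limma called none. At an unadjusted p under 0.05, 1 was lower and 0 higher (4.37% and 2.31% of all genes tested). The median was -0.078, with 13 below 0 and 5 above, where 53.2% of all genes tested were below 0. Cmas, the activating enzyme gene, was at 59.1 ± 1.32 and 57.3 ± 5.25 FPKM, Nans, the synthase gene, at 42.9 ± 5.12 and 41.5 ± 8.39 FPKM, and St3gal5, a transferase gene of ganglioside synthesis, at 31.7 ± 1.49 and 31.3 ± 2.61 FPKM (SD, n = 3 each). St3gal1, which caps core 1 mucin chains, stood at 13.3 ± 2.42 and 13.3 ± 0.794 FPKM. Of the selectins and the enzymes that turn sialomucins into selectin ligands in lymph node vessels, 1 of 8 genes reached a mean of 1 FPKM, the sulfotransferase gene Chst2, at 1.69 ± 0.234 and 1.37 ± 0.331 FPKM, and it was not called (limma, adjusted p = 0.824). The other 7 were not tested.

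**Figure D4:**
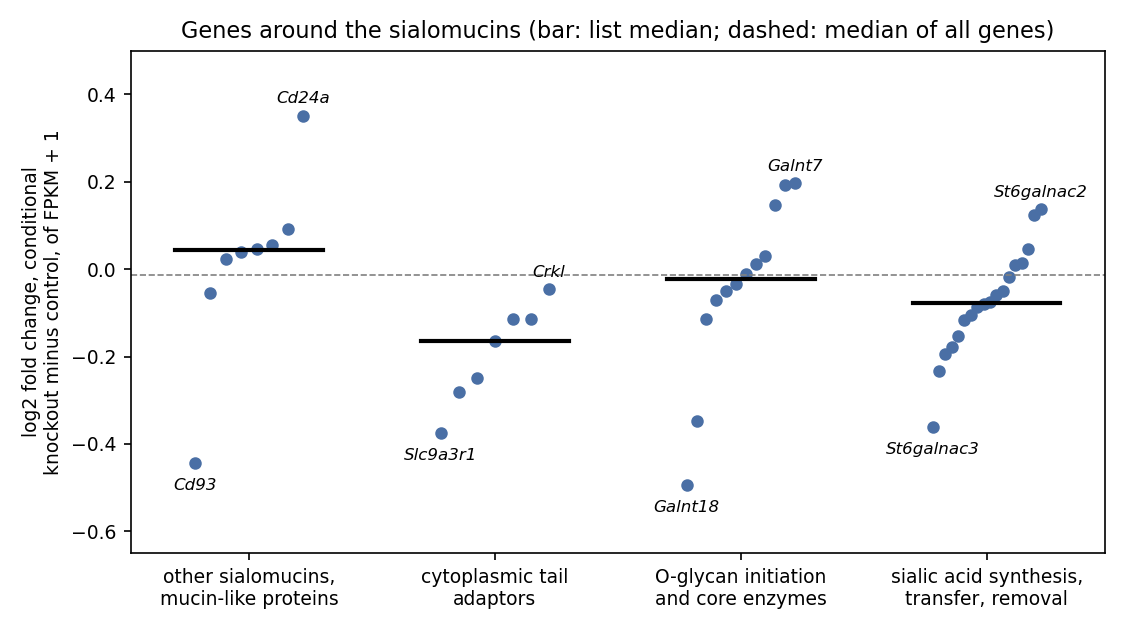
Log2 fold change of FPKM + 1, conditional knockout minus control (vertical axis), for each tested gene of 4 lists around the sialomucins, sorted within a list, with the list median as a black bar and the median of all genes tested as a dashed line. All 7 adaptor genes lie below 0, with a median of -0.16, and no gene shown passed the adjusted threshold.

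The genes whose pattern over the 6 libraries was most like each sialomucin gene were found among 8766 other genes that averaged 5 FPKM or more. Pearson's r of log2(FPKM + 1) is given as a description: it rests on 6 libraries and picks the highest values among all those genes. For Emcn these included Myc (r = 0.983), Smn1 (0.979), Pes1 (0.974) and Nsfl1c (0.963). For Cd34 they were Rasl11b (r = 0.990), Ascc1, Bcl2l12, Sirt6 and Uck1, and for Podxl they were Eif2b1 (r = 0.992), Pak1ip1, Hars, Nsf and Mthfd1. None of the genes named here is on the endothelial lists. Between the 3 sialomucin genes themselves r was 0.48 for Emcn and Podxl, -0.22 for Emcn and Cd34 and -0.055 for Cd34 and Podxl.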

How the data were processed

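The deposited FPKM values of 3 control and 3 conditional knockout libraries were used as the authors made them. The submitters' processing notes name TopHat2 2.0.9, Cufflinks 2.2.1, Cuffdiff, HTSeq and mm10, with no role or order, and the sources used here do not give the annotation, the strand setting and the handling of multiply matching reads. FPKM keeps no counts, so no count test was run. Genes averaging 1 FPKM or more over the 6 libraries were tested as log2(FPKM + 1) with limma 3.58.1 in R 4.3.3 (intensity trend, no block, Benjamini-Hochberg, threshold 0.05), which was first tested on simulated data. Fold changes on this scale understate those of low genes. Within-library ratios used exact permutation tests (SciPy 1.17.1). Positions are from GENCODE M21 on GRCm38.

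The table was searched for steps of whole reads in genes under 0.3 FPKM. In pairs among replicates 2 and 3, 7.27% to 11.0% of 1582 low genes shared 1 ratio, against 1.26% to 2.53% in pairs with a replicate 1 library, so both replicate 1 libraries were left out in an alternative.

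The members and the 16 gene lists were chosen with earlier results of these data known. Named genes are the 3 members, Tek, list genes past the threshold, the 3 most abundant genes of each list that is no cell type marker list, and the 5 genes most like each member. Predicted and clone-named genes were left out of the last, and 1 gene of the last is not reported here. Others are examples chosen after their values were seen. Of 38918 table rows, 37607 were found in GENCODE.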

Additional observations from a re-analysis of the deposited data

How the results depend on the processing

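Emcn, Cd34 and Podxl passed the threshold in none of their 16 alternative fits each, with adjusted p values from 0.184, 0.367 and 0.239 upward. Leaving out 1 library in turn gave log2 fold changes of -0.035 to 0.20 for Emcn, -0.14 to -0.031 for Cd34 and -0.087 to 0.057 for Podxl. Podxl turned positive with quantile normalization (0.023), median ratio scaling (0.0058), replicates 2 and 3 only (0.098) and mean Y-linked expression, a sign of embryo sex, as a covariate (0.093), as did Podxl (0.22) and Cd34 (0.14) centred on the pan-endothelial mean, a scale that raises all genes. The cause was not tested for the others. The 6 within-library differences kept their direction in every alternative. Relative to endothelial genes, the exact permutation p of Cd34 went from 0.1 to 0.2 with a pseudocount of 0.1. That of Podxl went from 0.2 to 0.1 with the list median. Leaving out 1 library in turn gave 0.23 to 0.43 for Emcn, 0.090 to 0.18 for Cd34 and 0.16 to 0.31 for Podxl relative to endothelial genes, 0.10 to 0.35 for Emcn to Cd34, 0.0071 to 0.17 for Emcn to Podxl and -0.18 to -0.011 for Cd34 to Podxl. Exact permutation tests cannot go below p = 0.2 with 3 against 2.

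The 16 genes called lower became 7 with no filter, 8 in replicates 2 and 3, 1 (Tek) with the Y-linked covariate and 4 to 9 without any 1 library, and the 7 called higher became 6 to 11 without any 1 library. Under the replicate block the adjusted p was 0.769 for Emcn, 0.655 for Cd34 and 0.969 for Podxl, with 11 genes called lower and 6 higher. Under sign flips of same-numbered pairs, p was 0.25 to 0.75 for the 6 within-library differences, and 0.25 is the smallest p that 3 pairs can give. Same-numbered libraries correlated in their deviations at 0.19, 0.031 and 0.23 over all tested genes and at 0.27, 0.11 and 0.44 over genes above 0 in every library, while unlike numbers gave -0.39 to 0.095 over the latter, so whether the numbers pair the libraries is unsettled and no member's call depends on it. Depth is unknown, and 3 libraries a group limit precision to the intervals given.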
